A study of Homo sapiens with 6 samples.

Results

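The 2 miRNAs described are hsa-miR-181a-3p and hsa-miR-181a-2-3p, the 3p arms of the 2 hairpins that make miR-181a. They were taken by name from the deposited tables of known miRNAs, and both were present (2 of 161 known rows, among 276 rows in all). The study sequenced small RNA of exosomes, membrane vesicles shed by cells, which were spun by ultracentrifugation out of the medium of HaCaT cells, an established line of human skin keratinocytes. One group of 3 libraries came from exosomes of HaCaT cells given 0.4 mM hydrogen peroxide (H2O2), an oxidant, and the other group of 3 from exosomes of HaCaT cells left untreated. Both groups are of the same line, the labels name no genetic change, and replicates are labelled as biological. H2O2 replicates 1, 2 and 3 are labelled with 24 h, 25 h and 26 h, although the series text states 24 h, so time and replicate cannot be told apart within that group. HaCaT is an immortalized line, which limits it as a model of skin, and the keratinocyte label was not checked against marker genes because only miRNA rows were used.

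A miRNA hairpin is cut into a duplex of a 5p and a 3p arm, of which one is usually kept by Argonaute proteins as the guide while the other, the minor or passenger arm, is mostly degraded. In the miR-181 family the 5p arms are the guides, known for tuning T cell receptor signalling in mouse thymocytes and for rising in senescent human keratinocytes. The minor arms carry different seeds from the guides, the seed being the stretch near the 5′ end that pairs with target RNAs. The comparison asks how the minor-arm content of the exosomes differs after the cells are given H2O2.

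The mature sequences of both minor arms are shown because they decide whether their reads can be told apart. They are from RefSeq (GRCh38.p14), 5′ to 3′, with the seed (bases 2 to 8) in capitals, and the shared guide and the closest relative, miR-181c-3p, are given for comparison.
miR-181a-3p: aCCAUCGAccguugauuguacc
miR-181a-2-3p: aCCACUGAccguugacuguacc
miR-181a-5p: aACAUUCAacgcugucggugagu
miR-181c-3p: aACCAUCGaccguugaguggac
Both minor arms were 22 bases long and identical at 19 positions. Counted from 1 at the 5′ end, with the base of miR-181a-3p first, the 3 differences were U5C, C6U and U16C, of which 2 lie in the seed. The longest stretch the arms share unbroken was 9 bases. Neither seed was found in another of the 2370 human mature miRNA names in the RefSeq table, and 136 of the 161 known rows had a sequence there. The guide miR-181a-5p has the same sequence in both hairpins, so the minor arms are the products that show from which hairpin a read came. miR-181c-3p contains the first 15 bases of miR-181a-3p, starting at its own base 2, and shares a stretch of 9 bases with miR-181a-2-3p. The sources used here do not give the mismatches allowed in counting, and a short read from the start of miR-181a-3p could have been shared with miR-181c-3p.

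The hairpins are shown to place the arms, with the 3p arm in capitals, each on its own strand (RefSeq, GRCh38.p14).
MIR181A1, chr1:198859044-198859153, minus strand: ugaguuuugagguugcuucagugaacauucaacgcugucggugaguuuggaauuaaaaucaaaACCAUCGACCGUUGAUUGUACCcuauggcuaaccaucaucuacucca
MIR181A2, chr9:124692442-124692551, plus strand: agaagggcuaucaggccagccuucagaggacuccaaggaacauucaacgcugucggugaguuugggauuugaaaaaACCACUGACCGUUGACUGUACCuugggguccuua
MIR181A1 lies in an intron of the long non-coding RNA gene MIR181A1HG, 61 bases from the hairpin of MIR181B1 (GENCODE release 29, GRCh38). MIR181A2 lies in an intron of MIR181A2HG, on the same strand, and inside an intron of the protein-coding gene NR6A1 on the opposite strand, 1158 bases from MIR181B2. Folded with RNAfold, each hairpin paired 18 of the 22 bases of its minor arm with the guide arm. The whole MIR181A2 hairpin had the lower predicted energy, -53.7 kcal/mol against -35.9 kcal/mol for MIR181A1.

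Both minor arms made up a larger share of the reads in exosomes of H2O2-treated cells than in exosomes of untreated cells. By the means, the share was about 2.65 times as large for miR-181a-3p and 2.59 times as large for miR-181a-2-3p. The deposited tables hold only rows the authors selected for a difference between these groups, so being listed as higher is part of why the rows are there. Levels are given as reads per 1000000 of the library total (CPM), with totals of 2449856 to 5405525 reads. These are shares of a library and not amounts. More vesicles carrying an RNA, more of it per vesicle and less of the other RNAs in the library therefore cannot be told apart.

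miR-181a-3p, the minor arm of MIR181A1, had 74.4, 99.2 and 63.2 CPM in H2O2 replicates 1 to 3 (229, 243 and 261 reads). In untreated replicates 1 to 3 it had 19.0, 22.7 and 47.5 CPM (60, 60 and 257 reads). The groups did not overlap, but the highest untreated library, replicate 3, came close to the lowest H2O2 library, with a factor of 1.33 between them. The exact 95% binomial interval, which covers counting error only, was 55.7 to 71.3 CPM for H2O2 replicate 3 and 41.9 to 53.7 CPM for untreated replicate 3. The means were 78.9 ± 18.4 CPM in H2O2 exosomes and 29.7 ± 15.5 CPM in untreated exosomes (SD, n = 3 each). The arm rose, with a log2 fold change of 1.40 ± 0.48 (SE; edgeR adjusted p = 0.0282, from its quasi-likelihood test with Benjamini-Hochberg adjustment over 186 tested rows).

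miR-181a-2-3p, the minor arm of MIR181A2, had 98.1, 176 and 68.7 CPM in H2O2 replicates 1 to 3 (302, 432 and 284 reads). In untreated replicates 1 to 3 it had 43.9, 36.3 and 52.2 CPM (139, 96 and 282 reads). The groups again did not overlap, and here the wide spread was in the H2O2 group, where replicate 2 stood highest, 2.57 times above replicate 3. The means were 114 ± 55.6 CPM in H2O2 exosomes and 44.1 ± 7.93 CPM in untreated exosomes (SD, n = 3 each). This arm rose too, with a log2 fold change of 1.37 ± 0.45 (SE; edgeR adjusted p = 0.0264). The authors' deposited table gives log2 fold changes of 1.55 for miR-181a-3p and 1.50 for miR-181a-2-3p, with unadjusted p-values of 0.000702 and 0.000841 from a test that is not named.

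**Figure D1:**
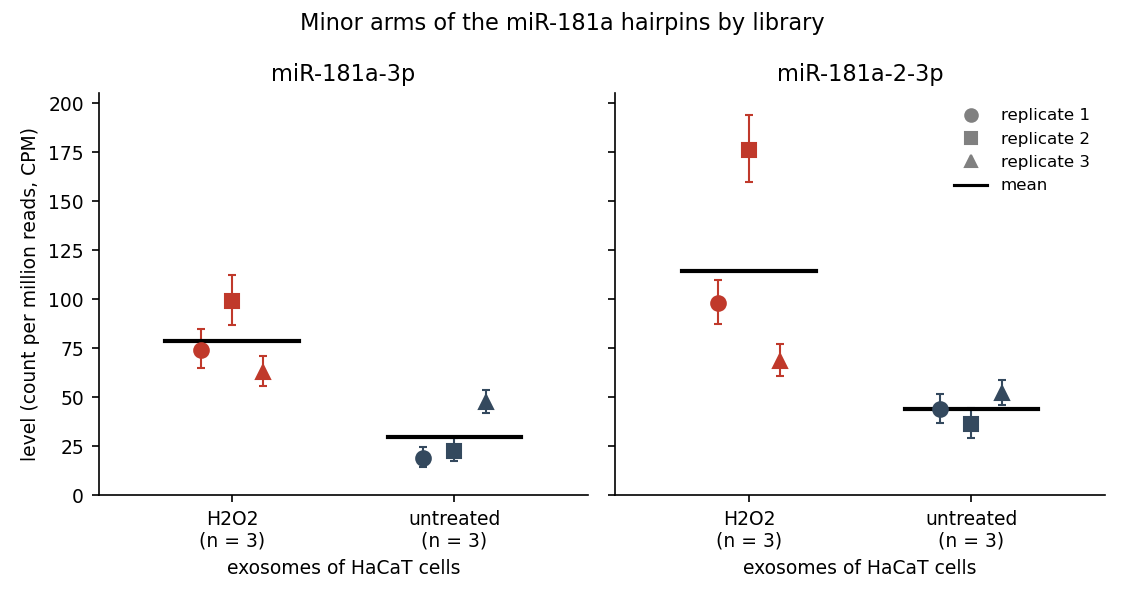
Level of each minor arm (CPM) in the 3 H2O2 and 3 untreated exosome libraries; symbols are replicates, bars their exact 95% binomial intervals and black lines group means. All H2O2 libraries lie above all untreated ones for both arms, with the smallest gap at replicate 3, at 63.2 against 47.5 CPM for miR-181a-3p and 68.7 against 52.2 CPM for miR-181a-2-3p.

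Both arms passing is to be read against the selection of rows. Of the 127 tested known rows, 30.7% were called higher in H2O2 exosomes, 48% lower and 78.7% either way, and in 37.8% the H2O2 libraries all lay above the untreated ones. The share of higher among the called known rows depended on the scaling, at 39.0% as reported, 26.7% with median-of-ratios scaling (18.9% of tested known rows called higher) and 51.7% with totals that exclude miR-1246 reads. Among the 39 known miRNAs that rose, 30 had a larger log2 fold change than miR-181a-3p and 31 a larger one than miR-181a-2-3p, with a median of 1.65. By mean level in H2O2 exosomes 15 of them were above miR-181a-3p and 11 above miR-181a-2-3p.

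Neither call survived every library being left out. The call of miR-181a-3p was lost without H2O2 replicate 1 (edgeR adjusted p = 0.0667), H2O2 replicate 2 (0.0658), untreated replicate 1 (0.0917) or untreated replicate 2 (0.0779), and that of miR-181a-2-3p without the same libraries (0.0572, 0.0751, 0.0738 and 0.0749). Both calls were kept without H2O2 replicate 3 and without untreated replicate 3. The share of known rows called higher fell as well, to 6.35% without H2O2 replicate 1, 15.1% without H2O2 replicate 2, 13.1% without untreated replicate 1 and 14.8% without untreated replicate 2, against 22.2% without H2O2 replicate 3 and 32% without untreated replicate 3. Without untreated replicate 3, the library with the most miR-181a-3p among the untreated, the log2 fold change of miR-181a-3p was 1.92 ± 0.43 (edgeR adjusted p = 0.0168). Without H2O2 replicate 2, the library with the most miR-181a-2-3p, that of miR-181a-2-3p was 0.92 ± 0.41. With the adjustment extended to 2000 miRNAs, more than these tables hold, the edgeR adjusted p was 0.303 for miR-181a-3p and 0.284 for miR-181a-2-3p.

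**Figure D2:**
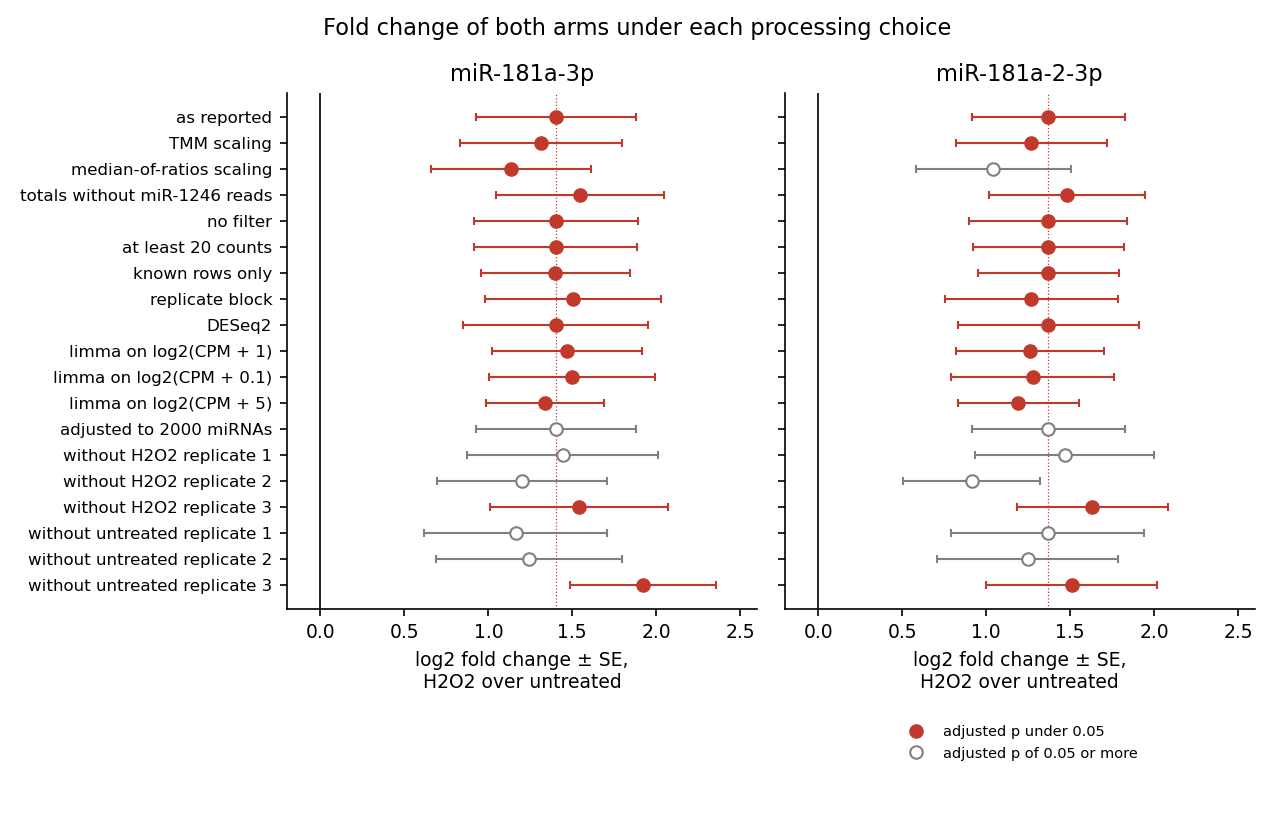
Log2 fold change of each minor arm, H2O2 over untreated, with its SE, under each processing choice (rows); filled points have an adjusted p under 0.05. All values are above 0, between 1.14 and 1.92 for miR-181a-3p and between 0.92 and 1.63 for miR-181a-2-3p, and most of the open points are fits without one library.

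One library bears on the CPM scale. miR-1246, an entry known to overlap U2 small nuclear RNA sequence, took 27.5% of the reads of H2O2 replicate 3, 3.32% of H2O2 replicate 1 and 0.261% of H2O2 replicate 2, against 0.130%, 0.368% and 1.15% of untreated replicates 1 to 3. With its reads taken out of the totals, miR-181a-3p stood at 76.9, 99.5 and 87.1 CPM in H2O2 replicates 1 to 3, against 19.0, 22.8 and 48.1 CPM in untreated replicates 1 to 3. miR-181a-2-3p stood at 101.5, 177 and 94.7 CPM in H2O2 replicates 1 to 3, against 44.0, 36.4 and 52.8 CPM in untreated replicates 1 to 3. The H2O2 libraries lay closer together on this scale, with SDs of 11.3 CPM for miR-181a-3p and 45.6 CPM for miR-181a-2-3p. The log2 fold changes were 1.55 ± 0.499 and 1.48 ± 0.46 (edgeR adjusted p = 0.0248 and 0.0222), in a fit that moved the median tested row by 0.17. Median-of-ratios scaling moved the median tested row by -0.28, and with it the log2 fold change was 1.14 ± 0.48 for miR-181a-3p (edgeR adjusted p = 0.0469) and 1.04 ± 0.46 for miR-181a-2-3p, which no longer passed (0.0556). With that scaling the groups did not overlap, at 59.3 to 84.0 CPM in H2O2 and 23.6 to 48.2 CPM in untreated exosomes for miR-181a-3p. For miR-181a-2-3p the ranges were 75.2 to 149 CPM in H2O2 and 39.0 to 54.7 CPM in untreated exosomes. These ranges are a description only, since the share of known rows without overlap was computed on the CPM scale (37.8%) and not on this one.

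The split of reads between both arms does not depend on the library total, and it asks whether both hairpins' minor arms moved by the same factor. miR-181a-2-3p made up 56.9%, 64.0% and 52.1% of the reads of both arms in H2O2 replicates 1 to 3, and 69.8%, 61.5% and 52.3% in untreated replicates 1 to 3. It was the more abundant arm in all 6 libraries by count, though in both replicates 3 the exact 95% interval included an even split (47.8% to 56.4% in H2O2, 48.0% to 56.6% in untreated). Within the untreated group the shares of replicate 1 (63.0% to 76.1%) and replicate 3 differed by more than counting error. The log2 ratio of miR-181a-2-3p to miR-181a-3p averaged 0.45 ± 0.36 in H2O2 and 0.67 ± 0.54 in untreated exosomes (SD, n = 3 each). The difference of -0.22 ± 0.37 (SE) was smaller than the spread between replicates, with p = 0.6 in a two-sided exact permutation test, where 0.1 is the smallest p that 3 against 3 allows. An H2O2 library minus an untreated one gave between -1.09 and 0.70 over all pairs. Between libraries of the same number it was -0.81, 0.15 and -0.01 for replicates 1, 2 and 3, though the numbers are not stated to pair libraries. The sign of the mean difference turned to 0.04 without untreated replicate 1, the library in which miR-181a-2-3p led by most.

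**Figure D3:**
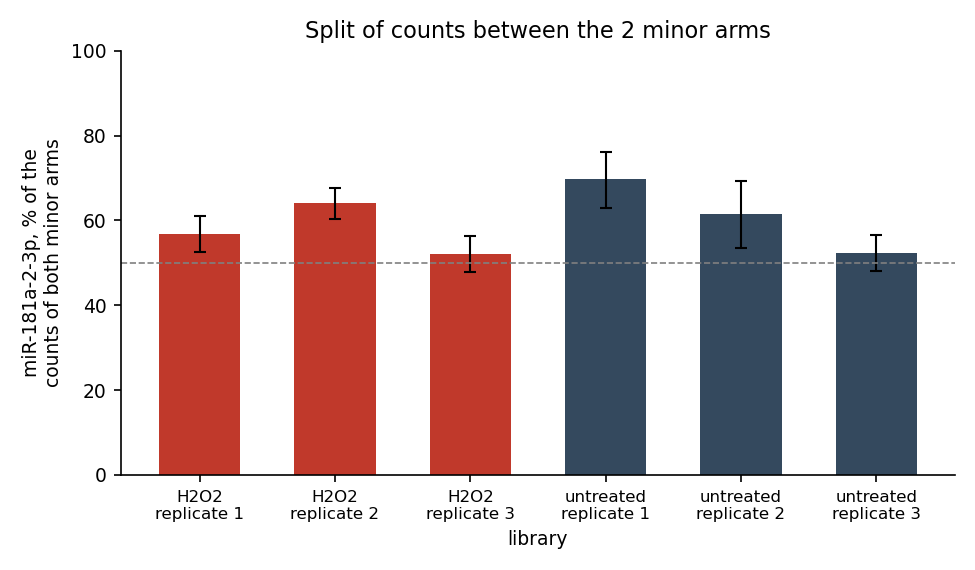
Share of miR-181a-2-3p among the reads of both minor arms in each library, in percent, with the exact 95% binomial interval; the dashed line marks an even split. H2O2 libraries run from 52.1% to 64.0% and untreated ones from 52.3% to 69.8%, so the groups overlap.

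The other products of the miR-181 hairpins were looked for by name. Of 10 names in the family, namely both arms of miR-181a, b, c and d, the 2 minor arms of miR-181a were listed. Both were listed as higher by the authors and both rose, against 30.7% that rose of the 127 tested known rows. The guide arms and the arms of miR-181b, c and d were not among the rows analysed here. A list drawn up from miRNAs known for rising in senescent human keratinocytes took in the arms of the miR-138, miR-181a, miR-181b and miR-130b hairpins. It held 11 names, of which the same 2 were listed. These 2 are in that list as arms of the hairpins, and the miR-181 guides, which are known for rising, were not among the rows. The level of the guide miR-181a-5p, and with it the ratio of guide to minor arm, was therefore not analysed here.

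The listed minor arms did not all move one way, as was true of the known rows as a whole, which the authors selected in both directions. Minor arms that were not listed have no values here, so nothing is said of the class. In a list of 83 minor arms of well-known hairpins 22 were listed, 11 as higher and 11 as lower, and 21 had enough reads to test. Without the miR-181a arms 19 were tested, of which 4 rose (21.1%), 11 fell (57.9%) and 4 did not pass, against 30.7% that rose and 48% that fell over all 127 tested known rows. The median log2 fold change was -1.44, against -1.23 over all tested known rows, and since the authors' selection left no values near 0 it moves with the balance of rises and falls. With totals that exclude miR-1246 reads 5 of the 19 rose and 9 fell, against 45 that rose and 42 that fell of the 127, so the balance depended on the scaling in both. The 4 that rose were miR-31-3p (2.64 ± 0.63), miR-130a-5p (3.97 ± 0.95), miR-103a-2-5p (1.92 ± 0.68) and let-7i-3p (1.55 ± 0.53), given as log2 fold changes with SE. The rise of the miR-181a arms was smaller than that of each of these by value, though let-7i-3p lay within its SE of both. In untreated replicates 1 to 3 miR-130a-5p had only 2, 0 and 24 reads, and miR-103a-2-5p had 4, 1 and 18.

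By mean CPM, miR-181a-2-3p ranked 4 among the 22 listed minor arms in H2O2 exosomes and 8 in untreated exosomes. miR-181a-3p ranked 5 in H2O2 exosomes and 10 in untreated exosomes. The 4 with the highest mean over all 6 libraries were miR-221-5p, miR-16-2-3p, miR-31-3p and let-7a-3p, of which let-7a-3p lay below both miR-181a arms in H2O2 exosomes and miR-31-3p ranked 6 in untreated exosomes. miR-221-5p, the minor arm of a hairpin known for promoting cell cycle entry, fell to 377 ± 18.3 CPM in H2O2 exosomes, against 932 ± 14.7 CPM in untreated exosomes (log2 fold change -1.31 ± 0.33, edgeR adjusted p = 0.0139). Its guide miR-221-3p fell too (-1.67 ± 0.48, edgeR adjusted p = 0.0202). miR-16-2-3p had 237 ± 181 CPM in H2O2 and 796 ± 339 CPM in untreated exosomes (-1.75 ± 0.65, edgeR adjusted p = 0.0352), and let-7a-3p, from a differentiation-linked family, 62.2 ± 29.3 CPM in H2O2 and 281 ± 15.4 CPM in untreated exosomes (-2.18 ± 0.46, edgeR adjusted p = 0.00891). miR-31-3p, whose hairpin takes part in keratinocyte growth, had 574 ± 21.0 CPM in H2O2 and 91.9 ± 86.2 CPM in untreated exosomes. Of the 22 listed minor arms, the only other one whose main arm was also listed was miR-19b-1-5p (1.20 ± 0.58, edgeR adjusted p = 0.0758). Its main arm is miR-19b-3p (0.94 ± 0.49, edgeR adjusted p = 0.0921), and neither passed.

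**Figure D4:**
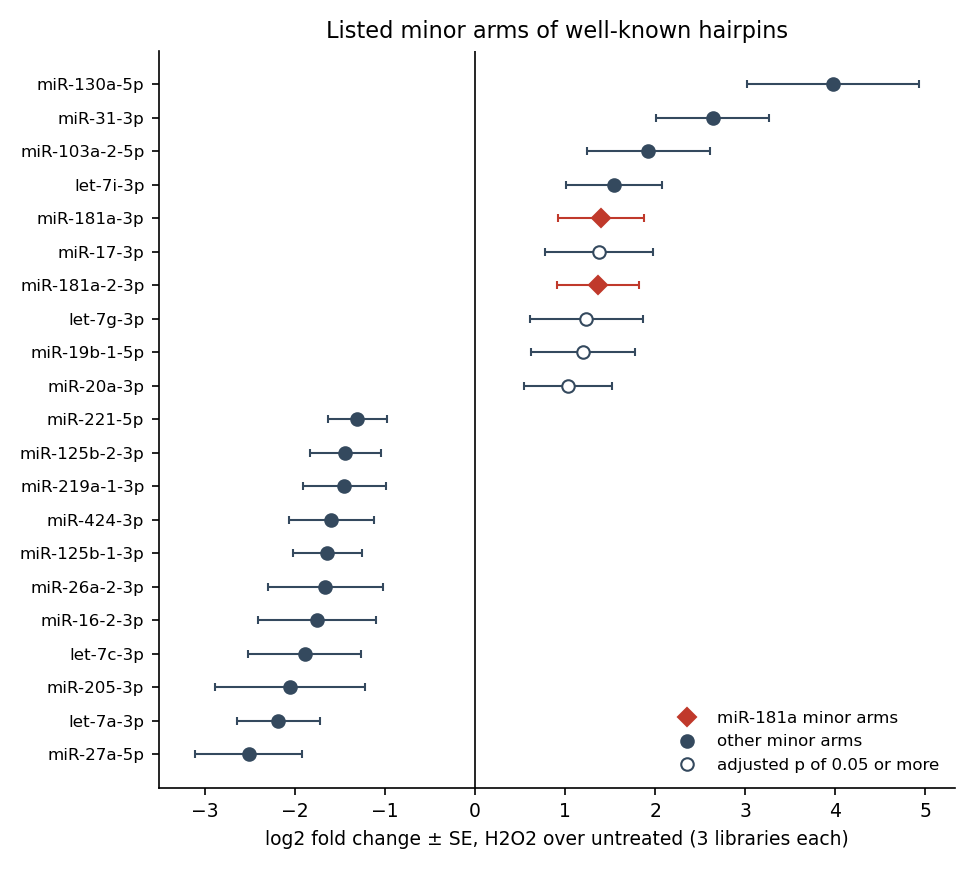
Log2 fold change with SE, H2O2 over untreated, of the 21 tested minor arms of well-known hairpins, ordered by value; red diamonds are the miR-181a arms (1.40 and 1.37) and open circles did not pass. No arm lies near 0, and the smallest absolute log2 fold change in the authors' deposited table was 1.03.

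The known miRNAs whose levels were most like each arm were named by the Pearson correlation of log2(CPM + 1) over the 6 libraries, a description that the choice of rows pushes up, since all rows were selected on these libraries. A like order of the libraries is favoured by a choice on r over the same libraries, so it adds nothing to r. The correlation was computed on CPM only, a scale on which miR-1246 took 27.45% of H2O2 replicate 3. Likeness on totals without its reads was not tested. Over the 60 other tested known rows with a positive log2 fold change the median r was 0.84 with miR-181a-3p and 0.82 with miR-181a-2-3p. The r between both arms was 0.897, so 22 tested known rows were closer to miR-181a-3p than its sister arm was, and 18 were closer to miR-181a-2-3p.

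miR-181a-3p was most like miR-324-5p (r = 0.983), a miRNA known for repressing Hedgehog pathway genes. miR-324-5p had 52.3, 78.8 and 48.6 CPM in H2O2 replicates 1 to 3, against 10.7, 15.5 and 24.4 CPM in untreated replicates 1 to 3. As for miR-181a-3p, and as the choice by r favours, replicate 2 was the highest H2O2 library and replicate 3 the highest untreated one. Next came miR-29c-3p (r = 0.981), known for repressing collagen genes, miR-15b-5p (0.971), known for repressing BCL2, then miR-31-3p (0.963) and miR-4286 (0.955). Of these 5, miR-15b-5p did not pass (log2 fold change 1.04 ± 0.44, edgeR adjusted p = 0.0528). miR-4286 had only 2, 2 and 11 reads in untreated replicates 1 to 3.

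miR-181a-2-3p was most like miR-374b-5p (r = 0.995), which is more abundant. miR-374b-5p had 1524, 2670 and 1043 CPM in H2O2 replicates 1 to 3, against 588, 569 and 800.3 CPM in untreated replicates 1 to 3. The order of the libraries, which the choice by r favours, was the same as for miR-181a-2-3p. The log2 fold change of miR-374b-5p, 1.42 ± 0.44 (edgeR adjusted p = 0.0253), was of a like size. Next came miR-19b-1-5p (r = 0.975), miR-193b-3p (0.969), known for repressing cyclin D1, miR-4488 (0.962) and miR-10400-5p (0.960). miR-4488 had 1 read in each untreated library, and miR-10400-5p had 5, 3 and 8 reads in untreated replicates 1 to 3. miR-19b-1-5p, with 4 to 19 reads a library, did not pass.

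**Figure D5:**
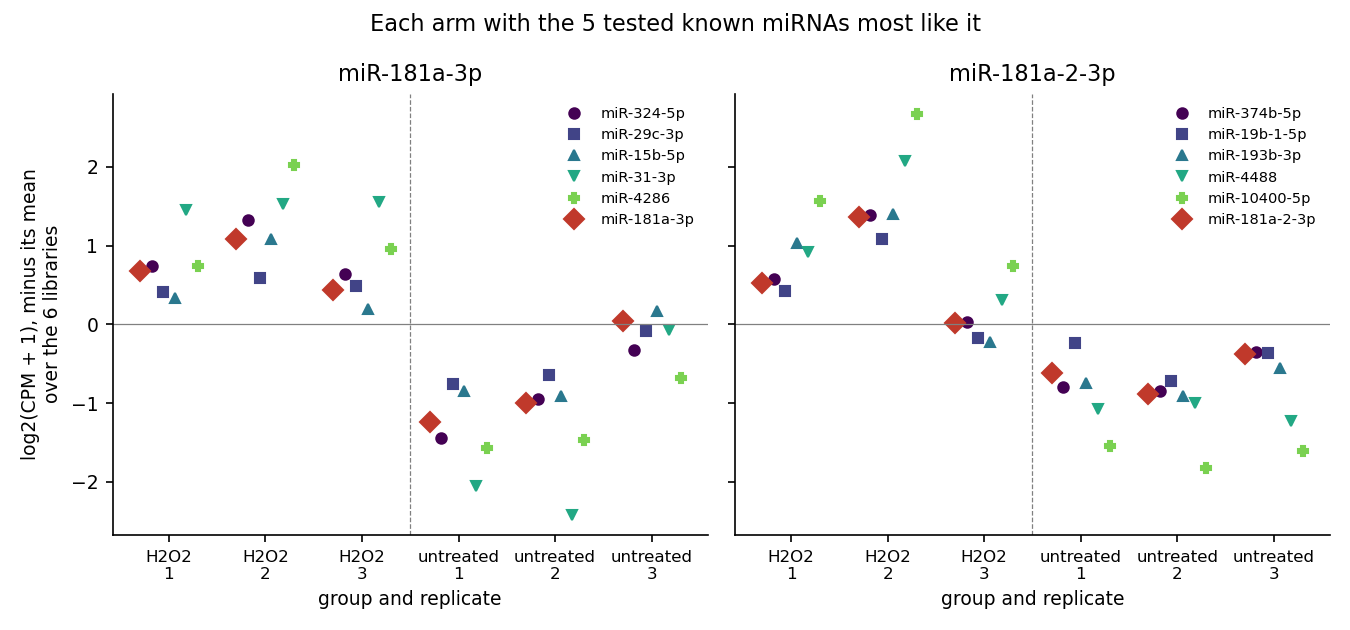
Level of each minor arm (red diamonds) and of the 5 tested known miRNAs most like it in each library, as log2(CPM + 1) minus the mean over the 6 libraries. In both panels H2O2 replicate 2 is high for most of the miRNAs shown, and for miR-181a-3p and its neighbours untreated replicate 3 is the highest untreated library.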

How the data were processed

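Per the labels' protocols, a NEBNext kit for small RNA was used on exosomal RNA of 6 libraries. Upstream tools were bcl2fastq, FastQC, cutadapt and Bowtie 1.1.1, per the submitters' processing notes; the sources used here do not give the genome build, miRNA catalogue or counting rules. Raw read counts and a normalized value were deposited for each library, per the file headers. The deposited normalized value is CPM of a library total, recovered as count over CPM. The authors also deposited a log2 fold change, its ratio (fold) and an unadjusted p-value; only selected rows were deposited in the tables used.

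From the counts, edgeR 4.0.16 in R 4.3.3 (glmQLFit, glmQLFTest, two-sided) was fitted with recovered totals and no composition factor to 127 known and 59 predicted rows that reached 5 counts in 3 or more libraries, with Benjamini-Hochberg adjustment at 0.05. The adjustment covers selected rows only and so understates p by an amount that cannot be computed here. The SE given with an edgeR value was computed as the absolute log2 fold change over the square root of the test's F statistic. The code was tested on simulated data. Alternatives used DESeq2 1.42.0, limma 3.58.1, other scalings, filters and pseudocounts, a replicate block and each library left out. Hairpins were folded with RNAfold (ViennaRNA 2.7.2).

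Named were the miR-181a minor arms, other listed miR-181 arms, the 5 tested known rows most like each, the 4 minor arms most abundant over all libraries and minor arms whose partner was listed. The members and lists were chosen with earlier results of these data known.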

Additional observations from a re-analysis of the deposited data

How the results depend on the processing

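Both arms stayed higher in H2O2 exosomes in all 18 alternatives, and miR-181a-3p passed in 13 and miR-181a-2-3p in 12. In CPM every H2O2 library lay above every untreated one. Leaving out a library or changing the filter, pseudocount or adjustment could therefore not turn the sign. miR-181a-2-3p was at 1.04 with median-of-ratios scaling and no longer passed, and adjusted to 2000 miRNAs both lost their calls at unchanged values of 1.40 and 1.37, while 2 known rows passed in place of 100. Leaving out 1 library gave log2 fold changes of 1.16 to 1.92 for miR-181a-3p and 0.92 to 1.63 for miR-181a-2-3p, and 11 (without H2O2 replicate 1) to 80 (without untreated replicate 3) known calls. The difference in log2 ratio of both arms ran from -0.49 to 0.04 without 1 library, 0.044 without untreated replicate 1, and was -0.19 ± 0.37 (SE) with edgeR's interaction of arm and group; the cause was not tested. The replicate numbers are not stated to pair libraries. Deviations of same-numbered libraries from their group means correlated at 0.08, 0.11 and 0.22 for numbers 1, 2 and 3. Between libraries of different numbers the correlation was 0.12 for H2O2 replicate 2 with untreated replicate 1. It was negative for the other pairs of different numbers, at -0.04, -0.02, -0.17, -0.20 and -0.11. Whether the numbers pair the libraries was not tested. With the replicate block the values were 1.50 for miR-181a-3p and 1.27 for miR-181a-2-3p, both still passing, and -0.22 for the ratio. With 3 libraries a group and 156 to 675 reads of both arms a library, the spread between libraries limits the precision more than counting does.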
